A study of Mus musculus with 16 samples.

Results

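Messenger RNAs of 9 genes of glycogen synthesis and breakdown (Ppp1r3a, Ppp1r3c, Ppp1r3d, Gyg, Gys1, Gbe1, Pygm, Phka1 and Phkg1) were followed in mouse tibialis anterior muscle, a shin muscle made mostly of fast fibres. The genes were chosen by symbol, with earlier results of these same libraries known, and all 9 were found among the 14538 genes of the normalised expression table. Their own differences between groups are therefore given as descriptions, and no p-value of a member is printed. Where members are said to be called or to pass a threshold, that too only describes these libraries and is no support for a difference. The muscle came from wild-type C57BL/6 mice (males, of the C57BL/6J substrain by the study's methods), moved at 8 weeks of age to a diet that causes non-alcoholic steatohepatitis (NASH) and to housing near 29 °C, so that every group shared the diet and the warmth. The mice lived singly. One group of 6 received recombinant growth differentiation factor 15 (GDF15), a hormone that lowers food intake, by daily morning injection under the skin. Doses of 0.3 nmol/kg, 1 nmol/kg and 5 nmol/kg are named in the labels, which do not say which of them these mice had or for how long. The vehicle group held 5 mice, and a further 5 pair-fed mice were given each day only as much food as the GDF15 group had eaten on the day before. Each mouse gave 1 library, the mice keep the numbers of their labels (vehicle 1 to 5, GDF15 1 to 6, pair-fed 2 to 6), and all tests below measure the spread between mice.

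Glycogen is the branched glucose polymer that muscle stores for its own contraction. Glycogenin (Gyg) primes a new particle, glycogen synthase (Gys1) lengthens its chains and the branching enzyme (Gbe1) adds branch points, whereas muscle phosphorylase (Pygm) releases glucose-1-phosphate once phosphorylase kinase (subunits Phka1 and Phkg1 among others) has phosphorylated it. Protein phosphatase 1 opposes that switch: regulatory subunits of the Ppp1r3 family bring it to the particle, where it activates the synthase and inactivates the phosphorylase. Ppp1r3a encodes the striated-muscle subunit, Ppp1r3c the subunit called protein targeting to glycogen, and Ppp1r3d a further family member.

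The comparison of GDF15 with pair-feeding is made at a matched daily amount of food, and each of these groups can also be set against vehicle. Pair-feeding does not match body mass during treatment. A gene was called when it passed both thresholds the study used in this muscle, an adjusted p below 0.1 and an absolute log2 difference above 0.6. Tests were made by limma on log2 of the normalised count plus 1, over 11841 genes with a mean normalised count of at least 10. The normalised counts were recovered from the deposited log2 values, and summed to between 12445468 and 13519612 per library. Depth was not given, but low values fell on steps from which between 9608529 and 15030303 assigned reads per library could be estimated, with medians of 13865220 for vehicle, 12200746 for GDF15 and 14298902 for pair-feeding. All 6 skeletal muscle markers were present and had summed levels between 1095715 and 1291737 normalised counts per library. In bulk muscle, a loss of cells of a type and a loss of RNA per cell cannot be told apart.

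The stretches before the starts of the 3 phosphatase subunit genes are shown because Ppp1r3c was the member that differed most between groups while its relatives did not share its pattern. Sequences are those of RefSeq on GRCm38.p6, all on the minus strand, written 5′ to 3′ from 250 bases before the RefSeq start and ending where the GENCODE gene begins, and capitals mark motif matches. Ppp1r3a is at chr6:14755275-14755524, Ppp1r3c at chr19:36736654-36736854 and Ppp1r3d at chr2:178414473-178414713.
Ppp1r3a: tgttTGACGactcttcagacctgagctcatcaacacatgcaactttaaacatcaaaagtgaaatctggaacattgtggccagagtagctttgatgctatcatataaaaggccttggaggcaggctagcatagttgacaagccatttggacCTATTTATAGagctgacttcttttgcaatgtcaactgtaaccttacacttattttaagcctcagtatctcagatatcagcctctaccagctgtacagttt
Ppp1r3c: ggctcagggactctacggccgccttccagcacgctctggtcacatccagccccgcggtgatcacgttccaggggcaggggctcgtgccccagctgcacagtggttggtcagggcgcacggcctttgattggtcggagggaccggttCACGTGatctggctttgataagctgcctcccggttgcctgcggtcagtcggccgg
Ppp1r3d: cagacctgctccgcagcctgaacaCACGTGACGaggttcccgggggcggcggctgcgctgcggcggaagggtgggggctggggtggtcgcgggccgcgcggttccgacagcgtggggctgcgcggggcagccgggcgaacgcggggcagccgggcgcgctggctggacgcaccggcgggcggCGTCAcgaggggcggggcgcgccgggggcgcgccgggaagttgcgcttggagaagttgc

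Both strands were searched over 250 bases for the full cAMP response element TGACGTCA, the shorter site TGACG, which reads CGTCA on the opposite strand, the E-box CACGTG, the loose E-box CANNTG and the MEF2 box. The capitals in Ppp1r3c are a CACGTG 104 bases before the start, a motif in 6.02% of the 32851 promoter windows of the same length. The long capital run in Ppp1r3d is a CACGTG 226 bases before the start that overlaps a TGACG at 222, and another short site lies at 68. In Ppp1r3a the capitals are a TGACG 246 bases before the start and a MEF2 box at 100. The short site was in 17.8% and the MEF2 box in 0.508% of all windows. The loose E-box, in 66.2% of all windows, was found in each of the 3 stretches and is not capitalised where it is not CACGTG. TGACGTCA, in 1.55% of all windows, was in none of the 3. These matches describe letters in short windows and are no evidence of binding.

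Per kb of transcript, the levels in vehicle-treated muscle spanned a wide range. Pygm was highest at 41995 ± 1179 normalised counts per kb (SD, n = 5), followed by Phkg1 at 3116 ± 99.0, Gys1 at 2410 ± 105, Gyg at 2251 ± 22.9, Phka1 at 1835 ± 104, Ppp1r3c at 1619 ± 465.5, Ppp1r3a at 538 ± 37.4, Gbe1 at 255 ± 27.0 and Ppp1r3d at 6.92 ± 1.36. Neighbours in this order whose mice overlapped were Gys1 with Gyg and Phka1 with Ppp1r3c, so those 2 steps of the order are not set by these data. Of the 3 phosphatase subunits, Ppp1r3c therefore had the highest level per kb and Ppp1r3d the lowest.

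Among the partner genes, Pgm1, which converts glucose-6-phosphate and glucose-1-phosphate into each other, had 6690 ± 195 normalised counts per kb, and Ugp2, which makes the UDP-glucose that the synthase uses, had 3638 ± 158. The phosphorylase kinase beta subunit Phkb was at 1281 ± 21.99 per kb. The isoforms typical of liver or other tissues were low. Phosphorylase Pygl had 6.23 ± 3.33 and Pygb 19.4 ± 8.22 normalised counts per kb, the kinase subunits Phka2 and Phkg2 19.8 ± 3.70 and 63.0 ± 6.57, and the synthase Gys2 3.36 ± 5.19. Ppp1r3b, the subunit best known from liver, had 2.43 ± 0.92 per kb.

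**Figure D1:**
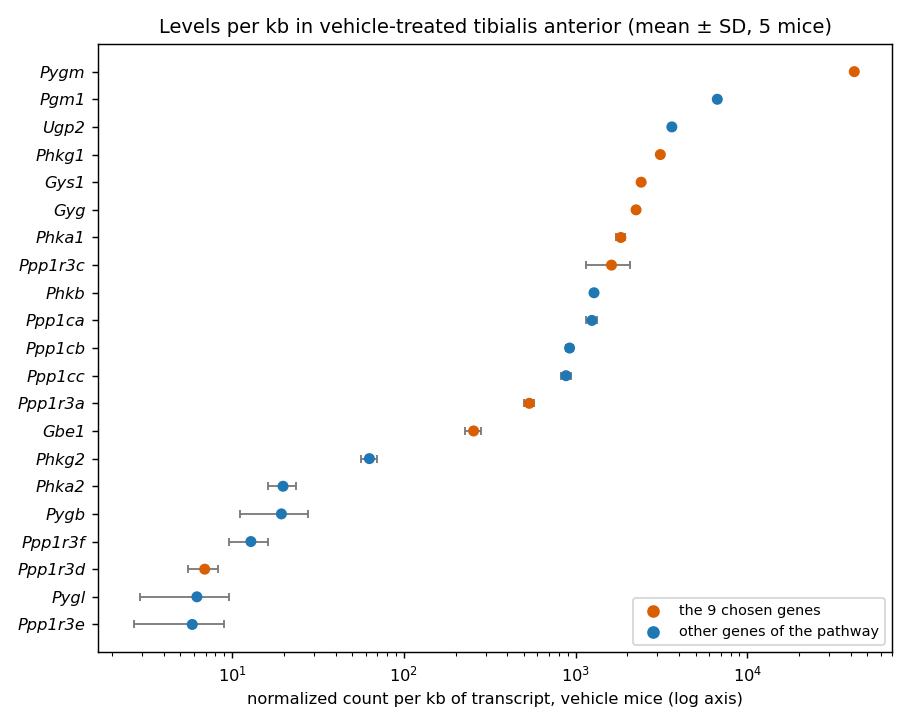
Mean normalised count per kb of the longest coding transcript in 5 vehicle-treated mice, on a log axis, with bars for 1 SD; orange points are the 9 chosen genes and blue points are partners and isoforms. Pygm (41995) lies far to the right, the other enzymes among the 9 chosen genes lie between 255 and 3116, and Ppp1r3d (6.92) lies beside Pygl (6.23).

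Ppp1r3c was higher with GDF15 than with pair-feeding and lower with pair-feeding than with vehicle. Its normalised counts in vehicle mice 1 to 5 were 6559, 4406, 3298, 3729.5 and 4063. With GDF15 they were 6203, 6915, 6843, 6673, 4302 and 5934 in mice 1 to 6. In pair-fed mice 2 to 6 they were 2241, 4356, 2557, 2843 and 1615. Thus 5 of the 6 GDF15 mice lay above every pair-fed mouse, and the groups overlapped only because GDF15 mouse 5, at 4302, fell just below pair-fed mouse 3, at 4356. Vehicle mice spread across both ranges, vehicle mouse 1 lying among the GDF15 mice and vehicle mouse 3 between pair-fed mice 5 and 3.

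Group means of Ppp1r3c were 4411 ± 1269 normalised counts for vehicle (SD, n = 5), 6145 ± 980.3 for GDF15 (n = 6) and 2722 ± 1021 for pair-feeding (n = 5). GDF15 exceeded pair-feeding by 1.23 ± 0.20 on the log2 scale (SE), a ratio of 2.35 with a 95% confidence interval from 1.75 to 3.16. Against vehicle, GDF15 was higher by 0.50 ± 0.20 (interval 0.08 to 0.93), and pair-feeding fell by 0.73 ± 0.21 (interval -1.18 to -0.29), which leaves 0.602 of the vehicle level. The 2 comparisons with vehicle share the same 5 vehicle mice, and the 2 comparisons with pair-fed mice share the same 5 pair-fed mice. With single mice left out, the difference between GDF15 and pair-feeding ranged from 1.06 to 1.42 (log2), given as a description since the gene was chosen with this difference known. The difference between pair-feeding and vehicle, a description for the same reason, passed both thresholds in the full set of mice. It did not pass them without vehicle mouse 1 (-0.58), 2 (-0.72) or 5 (-0.75) or pair-fed mouse 2 (-0.68), 5 (-0.77) or 6 (-0.56). Its direction was thus kept while its call was not.

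Ppp1r3a, by contrast, was slightly higher in pair-fed muscle. Vehicle mice 1 to 5 had 4176, 3493, 3779, 3639 and 3642 normalised counts. GDF15 mice ranged from 3606 to 4002 with a median of 3709.7, and pair-fed mice 2 to 6 had 4399, 3926, 4239, 4641 and 4219.8. Every pair-fed mouse but number 3 lay above all vehicle and GDF15 mice. The difference between pair-feeding and vehicle was 0.19 ± 0.05 (log2, SE), that between GDF15 and pair-feeding -0.19 ± 0.05, and that between GDF15 and vehicle 0.01 ± 0.05. The 2 main muscle subunits thus lay in opposite order in pair-fed and GDF15 mice, and the size of the Ppp1r3c difference was much the greater.

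Ppp1r3d was near the lower limit of the test. It had 20.7, 16.6, 26.3, 21.8 and 27.6 normalised counts in vehicle mice 1 to 5. GDF15 mice ran from 16.04 to 37.3 with a median of 23.0, and pair-fed mice 2 to 6 had 23.6, 28.7, 21.8, 21.8 and 37.0. All 3 groups overlapped widely. The differences were -0.13 ± 0.21 for GDF15 against pair-feeding, 0.09 ± 0.21 for GDF15 against vehicle and 0.22 ± 0.22 for pair-feeding against vehicle (log2, SE). The interval of the first, from -0.57 to 0.32, leaves room for a difference of moderate size either way.

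**Figure D2:**
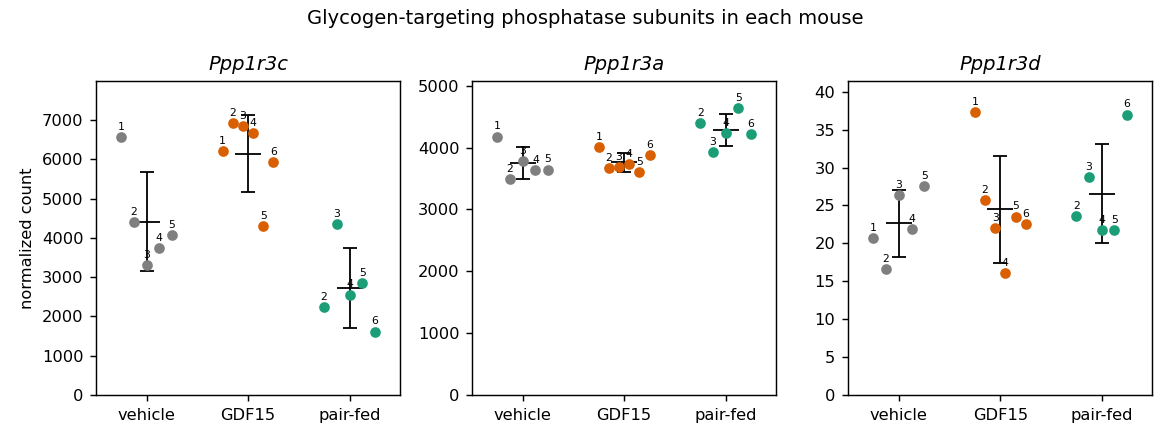
Normalised counts of Ppp1r3c, Ppp1r3a and Ppp1r3d (linear axes from 0) in each mouse, labelled with its number and coloured by group; horizontal marks are means and bars 1 SD. Ppp1r3c lies at 4302 to 6915 with GDF15 and at 1615 to 4356 with pair-feeding, Ppp1r3a is highest in pair-fed mice, and Ppp1r3d overlaps in all groups.

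Among the synthesis enzymes, Gyg was the one whose mice in both other groups did not overlap with vehicle. Gyg, which encodes glycogenin (chr3:20122084-20155317), had 4289, 4358, 4269, 4356 and 4361 normalised counts in vehicle mice 1 to 5. GDF15 mice lay between 4447 and 4781 with a median of 4542, and pair-fed mice 2 to 6 had 4729, 4846, 4567, 4871 and 5087. Both GDF15 and pair-fed mice lay wholly above the vehicle mice, whose SD of 43.9 was small beside those of GDF15 (124) and pair-feeding (192). The difference from vehicle was 0.15 ± 0.03 with pair-feeding and 0.08 ± 0.03 with GDF15 (log2, SE), or 11.3% and 5.55%. GDF15 lay below pair-feeding by a log2 difference of -0.08 ± 0.03, with overlap.

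Gys1 (chr7:45434844-45456619) encodes the muscle synthase, the enzyme that the phosphatase subunits act on. It had 8240.2, 9289, 9032, 8853 and 8904 normalised counts in vehicle mice 1 to 5, from 8199 to 9921 with a median of 8898 in GDF15 mice, and 8019.8, 9335, 8947, 8755 and 8532 in pair-fed mice 2 to 6. These ranges lay over each other. The differences were 0.04 ± 0.05, 0.02 ± 0.05 and -0.02 ± 0.05 (log2, SE) for GDF15 against pair-feeding, GDF15 against vehicle and pair-feeding against vehicle, and the 95% intervals together ran from -0.14 to 0.15. An exon of Gys1 overlaps Ruvbl2 on the opposite strand, and whether the authors' quantification used strand is not given in the sources used here.

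Gbe1 (chr16:70313949-70569716), the branching enzyme, was the least abundant of the enzymes. Vehicle mice 1 to 5 had 702, 904, 887, 804 and 912 normalised counts. GDF15 mice ranged from 788 to 976 with a median of 905, and pair-fed mice 2 to 6 had 687, 864, 1028, 754 and 735. The groups overlapped, with pair-fed mouse 4 highest and pair-fed mouse 2 lowest of all 16. The differences were 0.14 ± 0.10, 0.09 ± 0.10 and -0.06 ± 0.10 (log2, SE) in the same order of comparisons.

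The 3 breakdown enzymes had their highest means in pair-fed muscle. Pygm (chr19:6384399-6398459), the muscle phosphorylase, had 123679, 115204, 122740.5, 122057 and 119794 normalised counts in vehicle mice 1 to 5. GDF15 mice lay between 122507 and 134585 with a median of 124487, and pair-fed mice 2 to 6 had 156099.6, 129010.5, 133869, 150657 and 135889. Every pair-fed mouse was above every vehicle mouse, while 2 of the 6 GDF15 mice reached into the pair-fed range. Pair-feeding exceeded vehicle by 0.22 ± 0.05 (log2, SE), or 16.6% with an interval from 8.01% to 25.9%. GDF15 differed from pair-feeding by -0.16 ± 0.05 and from vehicle by 0.07 ± 0.05. With quantile normalisation the difference between pair-feeding and vehicle was 0.07, no longer under an adjusted p of 0.1. That between GDF15 and pair-feeding was -0.03. For pair-feeding against vehicle the same normalisation gave 0.15 for Gyg, 0.18 for Ppp1r3a, 0.25 for Phka1 and 0.20 for Phkg1. Scaled to equal summed counts, a setting added after the data were seen, Pygm was at 0.17 for pair-feeding against vehicle. It was at -0.11 for GDF15 against pair-feeding.

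Phka1 (chrX:102513975-102644246) encodes the muscle alpha subunit of phosphorylase kinase, a regulatory subunit. It had 11657, 11166, 10236, 11165 and 11883 normalised counts in vehicle mice 1 to 5, from 10173 to 12141 with a median of 11064 in GDF15 mice, and 14767, 11567, 12324, 13957 and 12528 in pair-fed mice 2 to 6. All pair-fed mice except number 3 lay above both other groups. Its differences were 0.21 ± 0.06 for pair-feeding against vehicle, -0.22 ± 0.06 for GDF15 against pair-feeding and -0.01 ± 0.06 for GDF15 against vehicle (log2, SE).

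Phkg1 (chr5:129863421-129898549) encodes the catalytic gamma subunit of the same kinase. Vehicle mice 1 to 5 had 7695, 7531, 7268, 7085 and 7414 normalised counts, GDF15 mice ranged from 7122 to 8199 with a median of 7731, and pair-fed mice 2 to 6 had 8906, 7510.5, 7885, 8868 and 8167. GDF15 mice lay between the others on average, and overlapped with both. The differences were 0.16 ± 0.05 for pair-feeding against vehicle, -0.09 ± 0.05 for GDF15 against pair-feeding and 0.07 ± 0.05 for GDF15 against vehicle (log2, SE). An exon of Phkg1 overlaps Sumf2 on the opposite strand.

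**Figure D3:**
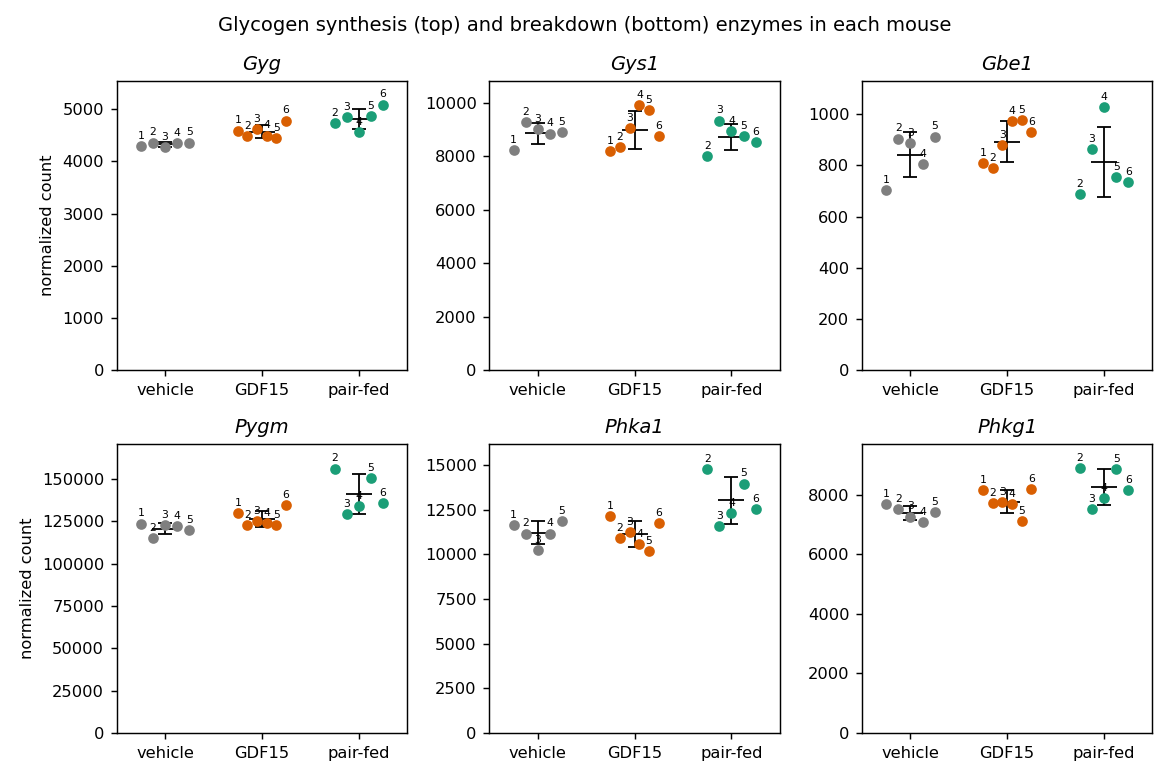
Normalised counts of the 3 synthesis enzymes (top row) and 3 breakdown enzymes (bottom row) in each mouse, on linear axes from 0, with mouse numbers, group means and bars of 1 SD. Gyg and Pygm of all pair-fed mice lie above all vehicle mice, pair-fed mice 2 and 5 are highest for Pygm, Phka1 and Phkg1, and Gys1 and Gbe1 overlap between groups.

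Pair-fed mice 2 and 5 were the 2 highest of all 16 mice for Pygm, Phka1, Phkg1 and Ppp1r3a, and pair-fed mouse 3 was the lowest pair-fed mouse for each of these 4 genes and the highest pair-fed mouse for Ppp1r3c. The fast-fibre, skeletal muscle and Schwann cell lists moved with these values. Between GDF15 and pair-feeding, all 4 Schwann cell, 4 fibroblast, 3 macrophage and 3 red blood cell markers were higher with GDF15. Their median log2 differences were 0.43, 0.38, 0.61 and 1.17, and 0 of them passed on adjusted p. The other marker lists went both ways in that comparison, and the part of any list was not tested there. The summed level of the 5 fast-fibre markers was 1432554 and 1411101 normalised counts in pair-fed mice 2 and 5, the 2 highest of the series, against 1119075 to 1364047 in vehicle, 1135067 to 1299075 in GDF15 and 1224516 to 1432554 in all pair-fed mice. Pair-fed mice 2 and 5 also had the 2 highest skeletal muscle marker sums (1291737 and 1231855 normalised counts), the 2 highest summed normalised counts of all genes (13519612 and 13458272) and the 2 lowest sums of the 4 Schwann cell markers (413 and 509.8, against 634 to 1202 in the other mice). The 3 endothelial markers summed to 3803 to 4533 in vehicle, 3143 to 3918 in GDF15 and 3317 to 4003 in pair-fed mice. Of these, Kdr, a receptor of endothelial cells, was lower in both GDF15 and pair-fed mice than in vehicle mice, without overlap. The log2 differences were -0.66 (limma adjusted p = 0.00116) and -0.50 (limma adjusted p = 0.0047). The oxygen-binding muscle protein gene Mb was lower in pair-fed than in vehicle mice (-0.50, adjusted p = 0.0515), while the differences of the other 5 skeletal muscle markers were above 0.

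Within the fast-fibre list, Actn3, a fast-fibre actinin, was higher in pair-fed than in vehicle mice by 0.33 (log2, limma adjusted p = 0.0167) and Pvalb, a calcium buffer of fast fibres, by 0.27 (adjusted p = 0.0538). Myh1, the IIx myosin, was lower by a log2 difference of -0.68 (limma adjusted p = 0.0123). Myh4, the IIb myosin, at 0.18 (adjusted p = 0.272), and Myh2, the IIa myosin, at -0.61 (adjusted p = 0.216), did not pass the test. In vehicle mice Myh4 averaged 823074 normalised counts and the 5 markers together 1244833, so Myh4 made up most of the sum.

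The summed level of the 5 slow-fibre markers was 1837 normalised counts in GDF15 mouse 1, 1694 in pair-fed mouse 3 and 1099 in pair-fed mouse 6, and at most 486 in the other libraries. With the summed fast-fibre markers as a covariate, a setting added after the data were seen, the differences between pair-feeding and vehicle became 0.15 for Pygm, 0.14 for Phka1, 0.10 for Phkg1, 0.12 for Ppp1r3a and 0.15 for Gyg (log2). Between GDF15 and pair-feeding they became -0.09 for Ppp1r3a, -0.14 for Phka1, -0.07 for Pygm, -0.02 for Phkg1 and 0.03 for Gbe1. With the same covariate Ppp1r3c was at -0.74 for pair-feeding against vehicle, where it no longer passed both thresholds, and at 1.24 between GDF15 and pair-feeding. Scaled to equal summed counts, the differences of Gyg and Phkg1 between GDF15 and pair-feeding were -0.03 and -0.05. With the summed slow-fibre markers as the covariate, the number of members passing on adjusted p was 3 for GDF15 against pair-feeding and 6 for pair-feeding against vehicle. The part of fibre type was not tested beyond these 2 covariates, and the parts of the other marker lists and of the summed counts in the differences of the breakdown genes were not tested beyond these settings.

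Over the 9 genes the median log2 difference was -0.09 for GDF15 against pair-feeding, 0.07 for GDF15 against vehicle and 0.16 for pair-feeding against vehicle, where the medians of all tested genes were 0.003, 0.001 and 0.001. Between GDF15 and pair-feeding, 1 of the 9 genes (Ppp1r3c) was called with both thresholds, where 0.279% of all tested genes were. On adjusted p alone, 1 was higher (Ppp1r3c, 0.929% of all genes) and 2 were lower (Ppp1r3a and Phka1, 1.24%). These 3 became Ppp1r3c alone without GDF15 mouse 2, 3, 4 or 5 or pair-fed mouse 2, 4, 5 or 6, and also without a variance trend, with 2 groups in the fit or with the fast-fibre covariate. No member's groups were without overlap, against 1.77% of all genes.

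Between GDF15 and vehicle, 0 of the 9 genes were called by limma with both thresholds, where 0.304% of all tested genes were, and 0 passed on adjusted p alone, where 0.769% did. At an unadjusted p under 0.05, 2 of the 9 passed, beside 11.0% of all tested genes. One gene, Gyg, had groups without overlap, against 1.65% of all genes.

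Between pair-feeding and vehicle, 1 of the 9 genes (Ppp1r3c, lower) was called with both thresholds, where 0.819% of all tested genes were. On adjusted p alone, 5 genes were higher (Ppp1r3a, Gyg, Pygm, Phka1 and Phkg1, 3.20% of all genes) and 1 was lower (Ppp1r3c, 3.17%). Gyg and Pygm had groups without overlap, against 5.44% of all genes. With 1 mouse left out, the 6 genes became 2 without vehicle mouse 2 or pair-fed mouse 5 and 3 without pair-fed mouse 2 or 6, and with the fast-fibre covariate they became 2. Since the genes were chosen with these comparisons known, the counts describe the set and nothing is read from them.

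**Figure D4:**
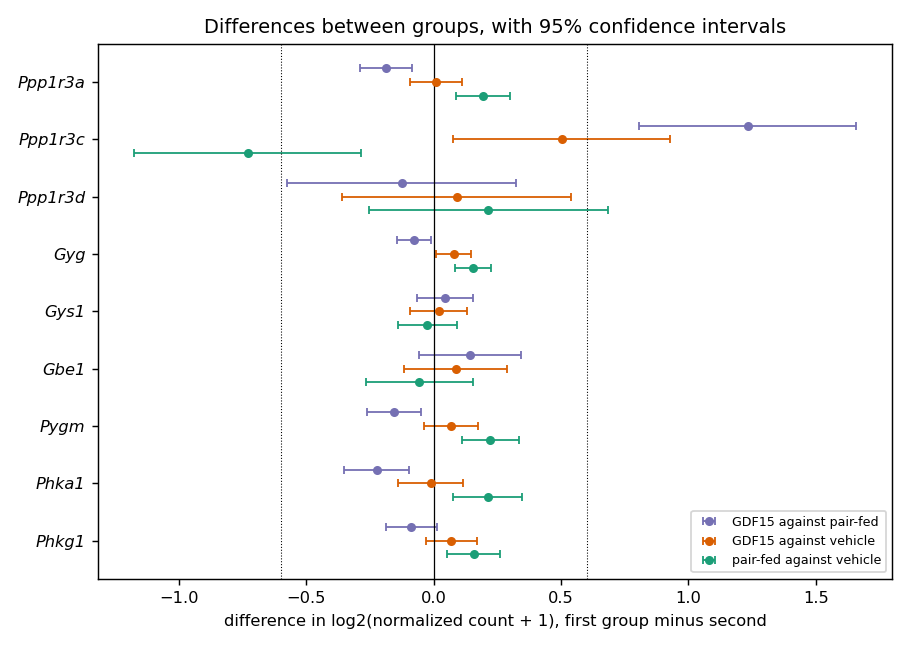
Differences in log2(normalised count + 1) of the 9 genes for 3 comparisons, first group minus second, with 95% confidence intervals from limma; dotted lines mark 0.6 either side of 0. Ppp1r3c stands alone beyond a dotted line, at 1.23 for GDF15 against pair-feeding and -0.73 for pair-feeding against vehicle, and the estimates of the other 8 genes lie between the dotted lines.

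The rest of the pathway was represented by 32 listed genes, of which 31 were in the table and 29 were tested; Ppp1r3g was not found, and Ppp1r3b and Gys2 were below the minimum. By limma, 0 of the 29 were called with both thresholds in any of the 3 comparisons. At an unadjusted p under 0.05 there were 6 of 29 for GDF15 against pair-feeding, 1 for GDF15 against vehicle and 10 for pair-feeding against vehicle, beside 13.2%, 11.0% and 18.9% of all tested genes. The median log2 differences of the 29 were -0.08, 0.03 and 0.10 in the same order.

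On adjusted p alone, 3 of the 29 genes passed, all higher in pair-fed than in vehicle mice, where 3.20% of all tested genes passed in that direction. Epm2a and Gaa are named after their values were seen. Epm2a encodes laforin, the glycogen phosphatase lost in Lafora disease. It had 1639 to 1740.2 normalised counts in vehicle and 1788 to 1919 in pair-fed mice, without overlap, a difference of 0.15 ± 0.04 (log2, SE; limma adjusted p = 0.0357). Gaa, the lysosomal acid glucosidase, was at 4345 to 5046 in vehicle and 4726 to 5600.1 in pair-fed mice (0.21 ± 0.05, adjusted p = 0.0448). Gsk3b, a kinase that inhibits glycogen synthase, was at 605 to 753 and 684 to 891 (0.26 ± 0.07, adjusted p = 0.0564). Its relative Gsk3a was at 0.05 ± 0.04 (adjusted p = 0.576).

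The number passing on adjusted p went from 3 to 1 without vehicle mouse 2 or 3 or pair-fed mouse 5 or 6, to 7 without pair-fed mouse 3 and to 0 with the fast-fibre covariate. Between GDF15 and pair-feeding, 3 of the 29 genes passed on adjusted p once pair-fed mouse 3 was left out and 0 otherwise. The steps beside the members showed no call. Pgm1 differed between pair-feeding and vehicle by 0.11 ± 0.06 (adjusted p = 0.332), Ugp2 by 0.07 ± 0.05 (adjusted p = 0.487) and Phkb by 0.17 ± 0.06 (adjusted p = 0.154), all log2 with SE. The minor isoforms Phka2 (0.32 ± 0.15), Phkg2 (-0.13 ± 0.13), Pygb (0.05 ± 0.22) and Pygl (0.28 ± 0.48) had wider errors in the same comparison.

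**Figure D5:**
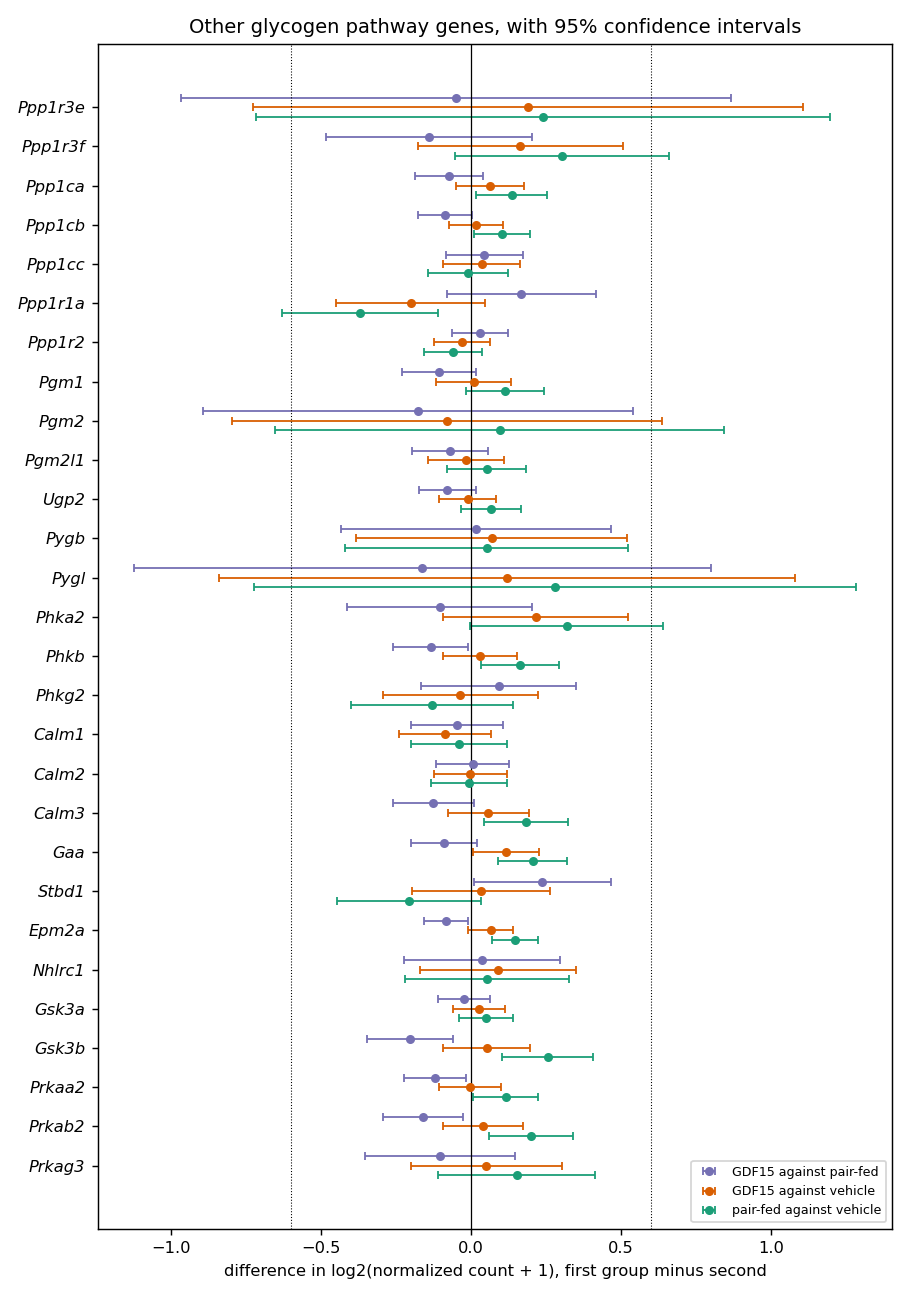
Differences in log2(normalised count + 1) of other tested pathway genes for 3 comparisons, first group minus second, with 95% confidence intervals from limma; dotted lines mark 0.6 either side of 0. All estimates lie between the dotted lines, and Epm2a (0.15), Gaa (0.21) and Gsk3b (0.26) are those with an adjusted p under 0.1 for pair-feeding against vehicle.

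Genes whose log2 values ran most nearly with those of Ppp1r3c over all 16 libraries included Tmem38b (Pearson r = 0.868), Lrrc30 (0.850), Fkbp5 (0.848) and Kpnb1 (0.846). These are descriptions over libraries that share 3 groups, and no test was made. Tmem38b, a cation channel of the sarcoplasmic reticulum, averaged 851 ± 15.7, 918 ± 60.5 and 765 ± 30.1 normalised counts (SD) in vehicle, GDF15 and pair-fed mice. Fkbp5, a chaperone partner of the glucocorticoid receptor, averaged 430 ± 103, 745 ± 164 and 389 ± 94.2. Unlike Ppp1r3c, Fkbp5 was about as low in vehicle as in pair-fed mice, with a log2 difference of -0.14 ± 0.18 between them.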

How the data were processed

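RNA from tibialis anterior of 16 mice was made into libraries with a directional NEBNext kit and sequenced as paired 50-base reads. Per the labels and the study's methods, the authors used Trim Galore for trimming, Salmon for transcript quantification (mm10) and DESeq2 for normalisation. Versions, annotation, strand setting and gene filter are not given in the sources used here. The deposited values are log2 (variance-stabilised), with a shared lowest value of 7.32. They were turned back into normalised counts, (y − m)²/y with y the linear value and m the lowest of them, and log2(count + 1) was fitted with limma 3.58.1 (R 4.3.3, all 3 groups, trended prior) for genes with a mean of at least 10, with Benjamini-Hochberg adjustment over 11841 genes. Lengths and positions come from GENCODE vM21 (GRCm38). Groups follow the labels. The members, gene lists and tests were chosen with earlier results of these data known. All 9 members were named, pathway genes if called or completing a member's complex or step, and the 5 genes most like Ppp1r3c; values of 2 of these named genes are not reported here. On simulated data, 191 of 200 genes changed by 1.5 (log2) between GDF15 and pair-fed groups were recovered, with 14 false calls. Libraries of a group differed by more than counting error in all 35 pairs (chi-square per gene 4.93 to 19.7). Mice of the same number are different animals, and deviations of the 14 such pairs correlated between -0.0994 and 0.0665. Alternatives covered the pseudocount, minimum, scaling, fibre covariates, fit and each mouse left out.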

Additional observations from a re-analysis of the deposited data

Results flagged for a closer look

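Ppp1r3c in GDF15 mouse 5, with 4302 normalised counts, lay far below the other 5 GDF15 mice, at a gap of 0.678 of the group's whole range. It was the 1 such value among 27 groups of mice examined (9 genes in 3 groups), and chance alone flags about 1 in 20 groups, so 1 among 27 is no more than chance gives. Without this mouse the difference of Ppp1r3c between GDF15 and pair-feeding was 1.33 (log2), and that between GDF15 and vehicle 0.60. Why this mouse lay low was not tested.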

How the results depend on the processing

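The difference of Ppp1r3c between GDF15 and pair-feeding was 1.06 to 1.42 on the log2 scale with a mouse left out and 1.14 to 1.28 under the other alternatives. Its call between pair-feeding and vehicle was lost (0 members called) without a variance trend (-0.73, log2) and with 2 groups in the fit (-0.73). It was also lost with the replicate block (-0.58) and with the fast-fibre covariate (-0.74). With a mouse left out the count of members called was 0 to 1. The causes were not tested. The block of mouse numbers, which mark different animals (1 of 16 libraries was most like its own number), moved the number of all genes called between GDF15 and vehicle from 36 to 20. All genes called were 7, 9 and 17 on the deposited log2 scale for GDF15 against pair-feeding, GDF15 against vehicle and pair-feeding against vehicle, in place of 33, 36 and 97, and 6 and 43 for GDF15 against pair-feeding and pair-feeding against vehicle with the fast-fibre covariate; with a mouse left out they ran from 15 to 62, 21 to 37 and 60 to 157. Members with an adjusted p under 0.1 went from 3 to 1 for GDF15 against pair-feeding without a trend, with 2 groups and with the fast-fibre covariate (1 to 4 with a mouse left out, 1 without GDF15 mouse 2, 3, 4 or 5 or pair-fed mouse 2, 4, 5 or 6). For pair-feeding against vehicle they went from 6 to 3, 3 and 2 (2 to 6 with a mouse left out). Other pathway genes went from 3 to 5 with a minimum mean of 50 or library quality weights and to 0 with the fast-fibre covariate (1 to 7 with a mouse left out), and from 0 to a range of 0 to 3 for GDF15 against pair-feeding. Signs turned only for members with small differences. For GDF15 against pair-feeding, Gys1 became -0.034 with the fast-fibre covariate. For GDF15 against vehicle, Phka1 became 0.05 with quantile normalisation and 0.0035 with the fast-fibre covariate, and Ppp1r3d -0.0095 with the slow-fibre covariate. With a mouse left out, Ppp1r3a ran from -0.017 to 0.047, Ppp1r3d from -0.036 to 0.20, Gys1 from -0.010 to 0.045 and Phka1 from -0.045 to 0.013. For pair-feeding against vehicle, Gys1 became 0.0054 with quantile normalisation and 0.039 with the fast-fibre covariate, and Gbe1 0.039 with the latter; with a mouse left out they ran from -0.051 to 0.0050 and from -0.15 to 9.9e-05. The largest shift that any scaling gave the median of all genes was -0.045. Ppp1r3d had a mean of 24.6 normalised counts and the widest intervals of the 9 genes; how much of that width comes from depth was not tested.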
